A study of Mus musculus with 4 samples.

Results

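Transcripts of 10 keratin genes were examined in cultured mouse embryonic fibroblasts (MEFs), the primary connective tissue cells grown from embryos. The genes are Krt7, Krt8, Krt18 and Krt19, found in simple epithelia, Krt5, Krt14, Krt15 and Krt17, found in the basal layer of stratified epithelia, and Krt1 and Krt10, found in the layers above it. They are 10 of the 17466 genes with a symbol on the array and account for 14 of its 31089 named probes. Every probe whose RefSeq transcript belongs to one of these genes was taken, on all 4 arrays. The genes were chosen on their measured signals at passage 7 and passage 2, with the difference in view, so their passage values are given as a description, without a test.

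Cells at passage 7, at the start of replicative senescence, were set against growing cells at passage 2. Replicative senescence is the lasting arrest that primary cells enter after repeated division in culture. Both groups were kept in DMEM with serum and antibiotics, and strain and embryonic age are not given in the sources used here. RNA of 3 independent cultures was pooled before the measurement, and each passage was read on 2 one-colour Agilent arrays. Nothing in the labels ties an array to a culture of its own, so p-values here measure the spread between arrays, which may be technical only. All arrays lay on 1 slide, with the passages at different positions, and an effect of slide position cannot be told apart from passage.

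Keratins are the intermediate filament proteins of epithelial cells. A filament is built from pairs of a type I keratin, such as Krt18, Krt19, Krt14 or Krt10, and a type II keratin, such as Krt8, Krt7, Krt5 or Krt1, and many unpaired keratins are degraded. Krt8 with Krt18 is the earliest pair of the embryo and of simple epithelia, Krt5 with Krt14 marks basal keratinocytes, and Krt1 with Krt10 replaces it as these cells differentiate. Fibroblasts build their cytoplasmic filaments mainly from vimentin. Mesothelial cells, which line the body cavities, contain both vimentin and simple epithelial keratins.

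In mouse, the type I genes lie side by side on chromosome 11 and the type II genes on chromosome 15. Krt18, a type I gene, is the exception: it lies on chromosome 15 next to its partner Krt8. The sequences upstream of this neighbouring pair, whose signals were lower at passage 7, are shown with that of Krt20, the only keratin called higher there. Each is the 260 bases from 250 before to 10 after the RefSeq transcript start in build GRCm38.p6, read 5′ to 3′ on the gene's strand. The windows are chr15:102004333-102004592 on the minus strand for Krt8, chr15:102027966-102028225 on the plus strand for Krt18 and chr11:99438144-99438403 on the minus strand for Krt20. Capitals mark the letters TATAA, the core of a TATA box, and CACCC, a core bound by Krüppel-like and Sp factors, each searched on both strands, so that CACCC on the other strand appears as GGGTG.
Krt8: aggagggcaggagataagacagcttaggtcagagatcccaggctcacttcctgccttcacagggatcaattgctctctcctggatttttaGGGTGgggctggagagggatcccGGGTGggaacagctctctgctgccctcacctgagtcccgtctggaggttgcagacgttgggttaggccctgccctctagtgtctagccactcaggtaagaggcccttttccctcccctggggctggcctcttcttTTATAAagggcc
Krt18: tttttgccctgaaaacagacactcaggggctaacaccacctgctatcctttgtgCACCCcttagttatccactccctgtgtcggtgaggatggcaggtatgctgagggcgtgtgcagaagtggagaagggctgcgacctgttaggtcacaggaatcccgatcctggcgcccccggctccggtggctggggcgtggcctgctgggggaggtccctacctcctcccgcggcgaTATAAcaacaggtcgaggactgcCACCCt
Krt20: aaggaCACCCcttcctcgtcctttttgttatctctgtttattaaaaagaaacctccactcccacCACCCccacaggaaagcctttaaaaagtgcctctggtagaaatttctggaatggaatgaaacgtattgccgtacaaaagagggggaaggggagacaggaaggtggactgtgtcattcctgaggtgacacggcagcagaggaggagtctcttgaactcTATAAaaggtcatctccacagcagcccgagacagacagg
TATAA began 19 bases before the annotated start in Krt18 and 29 bases before it in Krt20. In Krt8 it began 1 base before the annotated start, where TATAA and its reverse complement overlap. CACCC was found 2 times in each window. Of the 32851 RefSeq windows of the same length, 23.3% held TATAA and 53.2% held CACCC, so both are common. Searched in the same way, the Sp1-type letters GGGCGG were in none of these 3 windows, against 33.4% of all windows. The AP-1-type letters TGANTCA were in none either, against 7.03% of all windows, and the same held for the letters CCAAT, against 34.6%. A match is a description of letters only.

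All values are log2 of the background-subtracted signal minus the array's 75th percentile, so a value of 0 equals that percentile. A gene was represented by its brightest probe. Testing needed a signal well above background on the 2 arrays of either passage, which 13848 genes had. A call needed a limma adjusted p under 0.05 together with a 2-fold or larger change. The 75th percentile of the background-subtracted intensity was 964 and 402 at passage 7 and 1024 and 1404 at passage 2. The second passage 7 array was thus the dimmest, with 65.8% of its spots well above background, against 70.5% to 72.6% on the other arrays. All 15 fibroblast markers on the array, such as collagens and vimentin, were well above background on all 4 arrays. Because probes differ in brightness for reasons other than RNA amount, levels of single genes are compared between arrays and not between genes. Sums over a marker list add probes as measured, so bright probes weigh most. Each such sum is therefore also given without its brightest probe. Keratins are similar in sequence, and how far a probe reads its neighbours in the family was not tested.

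Krt8, Krt18 and Krt14 had lower signal at passage 7 than at passage 2, by 3.74-fold, 3.77-fold and 5.03-fold. Krt7, Krt5, Krt17 and Krt10 overlapped between the passages. Krt19 and Krt15 were lower on both passage 7 arrays by smaller or less even steps, and Krt1 was not well above background on any array. The arrays of the passages did not overlap for 5 of the 9 keratins that passed the filter, all lower at passage 7, and for 68.2% of all 13848 tested genes, 27.7% lower and 40.5% higher. These shares are given as context only, since the same contrast entered the choice of the genes. Krt15 also passed the filter through passage 2 alone. In bulk RNA, fewer cells of a type and less RNA per cell cannot be told apart.

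**Figure D1:**
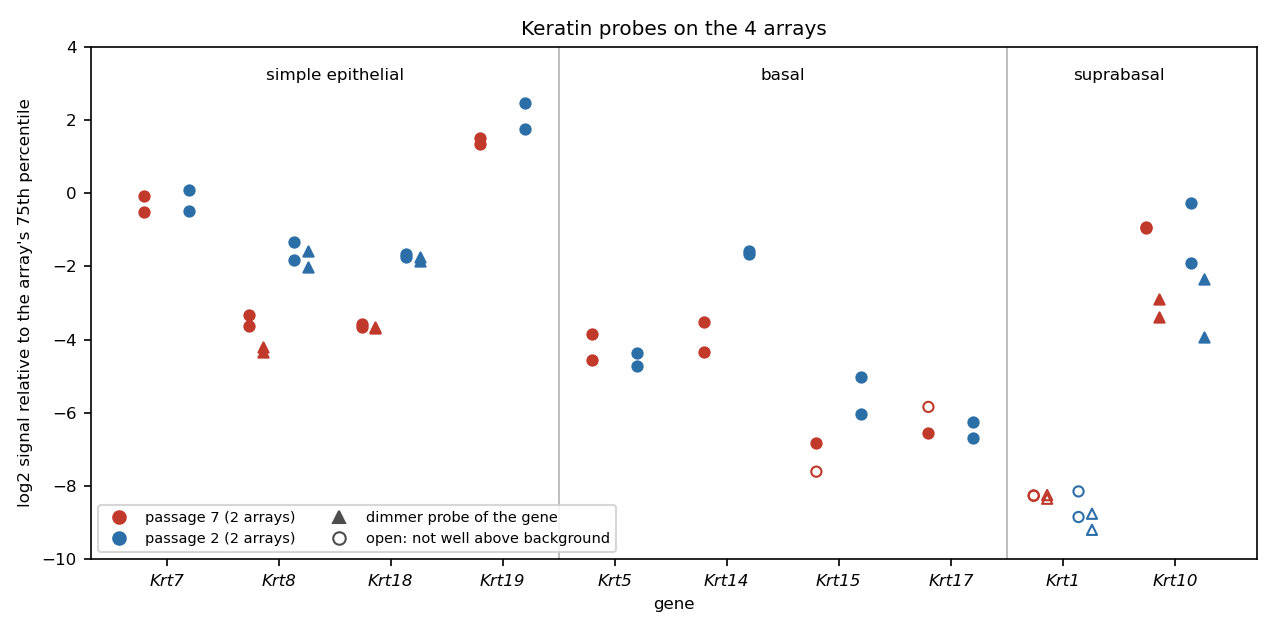
Log2 signal relative to the array's 75th percentile for all 14 probes of the 10 keratins, with 1 point per array, passage 7 to the left of passage 2 for each gene. Circles are the probe used for the gene, triangles its dimmer probe, and open symbols are not well above background. Krt8, Krt18 and Krt14 sit below their passage 2 points on both passage 7 arrays, whereas Krt7, Krt5, Krt17 and Krt10 overlap.

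Among the simple epithelial keratins, Krt8, the type II partner of Krt18, stood at -3.64 and -3.32 on the passage 7 arrays, against -1.34 and -1.81 on the passage 2 arrays. The change was -1.90 ± 0.25 (SE, n = 2 arrays per passage). The 2 groups were separate, and the gap between them exceeded the gap between the arrays of either passage. The background-subtracted intensities behind these values were 77.5 and 40.3 at passage 7 and 406 and 400 at passage 2. A second Krt8 probe read -4.20 and -4.35 at passage 7, against -1.59 and -2.02 at passage 2, a 5.54-fold lower signal.

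Krt18, the type I partner, stood at -3.66 and -3.57 at passage 7, against -1.67 and -1.73 at passage 2. Arrays of the same passage were almost superimposed, and the change was -1.91 ± 0.17 (SE, n = 2 per passage). Its second probe gave -3.66 and -3.68 at passage 7 and -1.73 and -1.86 at passage 2, 3.68-fold lower. The changes of Krt8 and Krt18 on their brightest probes differed by 0.01 on the log2 scale. All 4 probes of the pair were well above background on all arrays.

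Krt19, the small type I keratin of ducts and of mesothelium, stood at 1.34 and 1.52 at passage 7, against 2.48 and 1.77 at passage 2. Both passage 7 arrays were lower, but the higher of them was only slightly under the lower passage 2 array. The change was -0.69 ± 0.29 (SE, n = 2 per passage), or 1.62-fold lower. The passage 2 arrays alone were 0.70 apart, so the change was about the size of their spread. Krt19 stayed above the 75th percentile of all 4 arrays.

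Krt7, the type II keratin of glandular and mesothelial linings, stood at -0.50 and -0.06 at passage 7, against 0.08 and -0.49 at passage 2. The 2 groups covered nearly the same range, and the change was -0.08 ± 0.29 (SE, n = 2 per passage). The simple epithelial keratins therefore ranged from no difference beyond the spread in Krt7 to the lower signals of Krt8 and Krt18. The changes of Krt7 and Krt19 differed by 0.62 on the log2 scale.

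Among the basal keratins, Krt14, the type I partner of Krt5, stood at -4.35 and -3.53 at passage 7, against -1.57 and -1.65 at passage 2. The groups were far apart although the passage 7 arrays differed by 0.82 from each other. The change of -2.33 ± 0.32 (SE, n = 2 per passage) was the largest of the 9 keratins of the set that passed the filter. Background-subtracted intensities were 47.4 and 34.9 at passage 7 and 346 and 448 at passage 2.

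Krt5, the type II partner, stood at -4.57 and -3.84 at passage 7, against -4.37 and -4.73 at passage 2. The groups overlapped, and the change was 0.35 ± 0.32 (SE, n = 2 per passage). The changes of Krt5 and Krt14 differed by 2.68 on the log2 scale, whereas those of Krt8 and Krt18 were nearly equal on their brightest probes. The second probes of Krt8 and Krt18 changed by -2.47 and -1.88. Krt5 was dim throughout, with intensities of 40.7 and 28.1 at passage 7 and 49.6 and 53.0 at passage 2.

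Krt15, a type I keratin of basal cells and hair follicle stem cells, stood at -6.84 and -7.61 at passage 7, against -5.02 and -6.04 at passage 2. Both passage 7 arrays were lower, but only the first was well above background, so Krt15 passed the filter through passage 2 alone. The change was -1.70 ± 0.45 (SE, n = 2 per passage). The passage 2 arrays differed by 1.01. Over the 15 alternative ways of processing the arrays the change of Krt15 ranged from -2.20 to 1.62, positive in the 2 normexp background corrections, and it was -0.55 in the authors' deposited table.

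Krt17, a type I keratin induced in wounded and growing epidermis, stood at -6.55 and -5.84 at passage 7, against -6.24 and -6.69 at passage 2. The groups overlapped, the second passage 7 array was not well above background, and the change was 0.27 ± 0.32 (SE, n = 2 per passage). The basal keratins thus did not move together: Krt14 and Krt15 were lower on both passage 7 arrays, and Krt5 and Krt17 were not. Background-subtracted intensities of Krt17 lay between 7.03 and 13.6 on the 4 arrays.

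Of the suprabasal keratins, Krt10, the type I partner of Krt1, stood at -0.93 and -0.94 at passage 7, against -0.27 and -1.90 at passage 2. Both passage 7 values lay between the passage 2 values. The change was 0.15 ± 0.56 (SE, n = 2 per passage). The gap of 1.62 between the passage 2 arrays was unusual, since 1.81% of tested genes had a larger one, and the median gap at that passage was 0.32. The second Krt10 probe had the same split, with -2.89 and -3.39 at passage 7 and -2.33 and -3.92 at passage 2. Without the first passage 2 array the change was 0.96 and without the second it was -0.66, so the sign depended on which was kept. Krt1, the type II partner, was not well above background with either of its 2 probes, at -8.27 and -8.26 at passage 7 and -8.85 and -8.15 at passage 2 with the brighter one.

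The median change of the 4 simple epithelial keratins was -1.30, within a range of -1.91 to -0.08. That of the 4 basal keratins was -0.71, within a range of -2.33 to 0.35. The simple minus basal difference of medians was -0.59, but the range of the basal keratins enclosed that of the simple ones, and there are 4 genes in each group. The median change of all tested genes was 0.20, so relative to it Krt8, Krt18 and Krt14 changed by -2.10, -2.11 and -2.53. With quantile normalisation, median scaling or the authors' deposited table that median was 0.02, 0.03 and -0.06, and the signals of Krt8, Krt18 and Krt14 were lower at passage 7 in each.

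**Figure D2:**
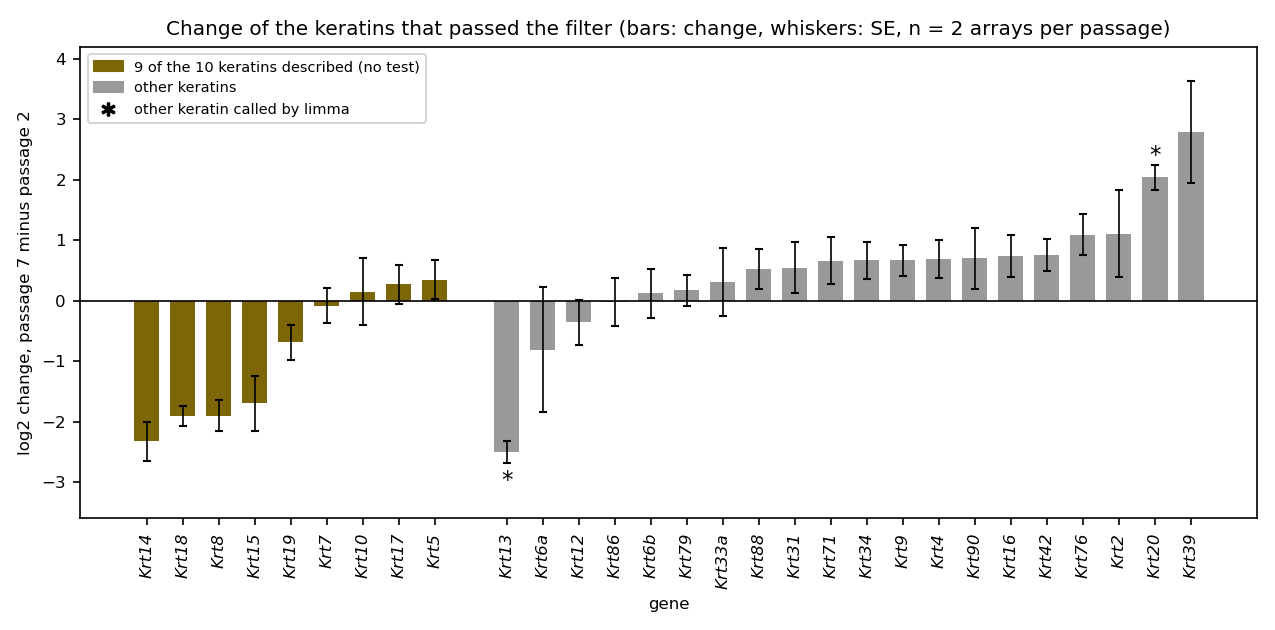
Log2 change, passage 7 minus passage 2, of the 9 keratins of the set that passed the filter (brown, not tested) and of the 20 other tested keratins (grey), as bars with SE whiskers from 2 arrays per passage and an asterisk where limma called one of the others. Krt14, Krt18 and Krt8 are the lowest of the set, Krt13 is the lowest of the others and Krt20 their only call upwards. The bars of Krt13 and Krt39 rest on values that were not well above background in 1 passage.

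Another 37 keratins have 50 probes on the array, and 20 of them were tested. Krt20 rose, Krt13 fell and 18 were not called, whereas 19.4% of all tested genes were called, 9.99% higher and 9.42% lower. Krt20, a type I keratin of intestinal and urothelial surface cells, stood at 0.00 and -0.07 at passage 7, against -1.91 and -2.24 at passage 2. It was 4.10-fold higher (log2 change 2.04 ± 0.20 SE, limma adjusted p = 0.0076), and its second probe changed by 2.01. The rise of Krt20 thus ran opposite to Krt8 and Krt18, and it exceeded the array gaps at both passages.

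Krt13, the type I keratin of the upper layers of inner stratified linings such as the oesophagus, stood at -7.65 and -7.66 at passage 7, against -5.06 and -5.24 at passage 2. It was not well above background on either passage 7 array, so it passed the filter only through passage 2, where its signal was higher. Its signal was at least 4.87-fold lower there (limma adjusted p = 0.0052), the bound being set by the lowest signal well above background on each array. In the authors' deposited table its change was -0.94, under the 2-fold limit, and with the 2 normexp corrections it was 1.48 and 0.32. Krt39, a hair keratin chosen here after its values were seen, was at least 4.10-fold higher by the same bound but was not called (limma adjusted p = 0.073). It passed the filter through passage 7 alone, and its second probe was not well above background on any array.

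Krt6a and Krt16, a pair induced in wounded epidermis together with Krt17, were not called. Krt6a stood at -5.74 and -4.61 at passage 7, against -2.90 and -5.84 at passage 2, a change of -0.81 ± 1.04 (SE, limma adjusted p = 0.59). The gap of 2.93 between its passage 2 arrays was exceeded by 0.333% of genes. Krt16 stood at -3.53 and -3.13 at passage 7, against -3.68 and -4.46 at passage 2, a change of 0.74 ± 0.34 (SE, limma adjusted p = 0.17). Both genes were well above background on all 4 arrays.

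By list, 12 epithelial keratins outside the set were tested, with 1 higher, 1 lower and a median change of 0.68. The 6 tested keratins of hair and root sheath had a median of 0.60, with none called by limma and 1 higher at an unadjusted p under 0.05. These medians stand beside 0.20 over all tested genes, of which 19.4% were called. Of the 34 genes of the 2 lists on the array, 15 were not well above background on any array. The changes of those 15 ranged from -0.79 in Krt80 to 1.53 in Krt35. Probes near background thus had changes as large as the 2 medians, which are not read as a rise.

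The 5 genes with the pattern most like Krt8 over the 4 arrays, by Euclidean distance of centred log2 values among 12810 genes, were Cyp11a1, Chaf1b, G0s2, Stmn1 and Amhr2. Their distances were 0.05 to 0.10 and their changes -1.96 to -1.84. Krt18 ranked 38 in likeness to Krt8 and Krt14 ranked 267. For Krt14 the 5 nearest were Ankle1, Aard, Mdk, Cenpa and Nefl, at distances of 0.18 to 0.26, with Krt8 ranked 82. These are descriptions over 4 arrays that share 1 slide.

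Genes that anchor keratin filaments changed in both directions. Of 21 tested desmosome, hemidesmosome and keratin-binding genes, 6 were higher and 3 lower, with a median change of 0.30, against 9.99% called higher, 9.42% called lower and a median of 0.20 over all tested genes. Perp, a desmosome protein and p53 target, stood at 4.30 and 4.26 at passage 7, against 1.37 and 1.63 at passage 2 (6.87-fold higher, limma adjusted p = 0.0052). Dsp, the plaque protein that ties keratins to desmosomes, stood at -2.82 and -2.71 at passage 7, against -5.93 and -4.98 at passage 2 (6.45-fold higher, limma adjusted p = 0.013), a log2 change that ranged from 1.59 to 3.16 over the alternatives. Dst, a plakin that links keratins to hemidesmosomes, rose by 1.46 (limma adjusted p = 0.019) and Fam83h, a keratin-binding protein, by 1.22 (limma adjusted p = 0.015). Neither Perp nor Dsp overlapped between the passages. Without the first passage 7 array 3 genes of the list were called, and without the second 4; Dst (1.60 and 1.32) and Fam83h (1.28 and 1.16) were not among them.

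The 3 that were lower were Ppl, Dsg2 and Pnn. Ppl, the plakin periplakin, stood at -5.81 and -6.04 at passage 7, against -2.62 and -2.51 at passage 2 (10.2-fold lower, limma adjusted p = 0.005), but its change was 0.08 and -1.09 with the normexp corrections, without a call. At passage 7 only the first array measured it well above background, so it passed the filter through passage 2 alone. Dsg2, the desmosomal cadherin of simple epithelia, was 2.83-fold lower (limma adjusted p = 0.015). Its second passage 7 array was not well above background, so it passed the filter through passage 2 alone. Its change was -0.67 in the authors' deposited table, without a call, and 1.51 and 0.41 with the normexp corrections. Pnn, a nuclear splicing protein also described at desmosomes, fell by 1.19 (limma adjusted p = 0.017). Pnn was not called without the first (-1.26) or the second (-1.12) passage 7 array, nor Dsg2 without the first passage 7 (-1.31) or the second passage 2 array (-1.44).

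Of 26 tested regulators of epithelial and keratin genes, 3 were higher and 1 lower, and 22 were not called, so 15.4% were called, a share near the 19.4% over all tested genes. Grhl3, a transcription factor of the epidermal barrier, stood at -3.58 and -3.42 at passage 7, against -6.90 and -6.31 at passage 2. It was 8.59-fold higher (limma adjusted p = 0.0061), a log2 change that ranged from 1.48 to 3.40 over the alternatives. The first passage 2 array did not measure Grhl3 well above background, so it passed the filter through passage 7 alone. Esrp2, an epithelial splicing factor, rose by 1.80 (limma adjusted p = 0.0079), but by 0.89 in the authors' deposited table and without a call there, and Fosl1, an AP-1 subunit, by 1.20 (limma adjusted p = 0.021). Fosl1 was not called without the first (1.12) or second passage 7 array (1.29) or the second passage 2 array (1.05), and without the first passage 2 array 7 regulators were called. Notch1, a receptor that drives keratinocytes out of the basal layer, stood at -0.65 and -0.77 at passage 7, against 1.67 and 0.93 at passage 2 (4.03-fold lower, limma adjusted p = 0.015). Trp63, the master factor of basal keratinocytes, which activates Krt5 and Krt14, stood at -5.65 and -4.90 at passage 7, against -4.38 and -4.19 at passage 2. It was lower on both passage 7 arrays but was not called (change -0.99 ± 0.31 SE, limma adjusted p = 0.077). It was called lower by limma with quantile normalisation (-1.22, adjusted p = 0.03) and with median scaling (-1.16, adjusted p = 0.014), and the 2 normexp corrections gave 1.24 and 0.18.

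The other intermediate filament genes included vimentin. Vim stood at 4.87 and 5.58 at passage 7, against 4.55 and 4.24 at passage 2, a change of 0.84 ± 0.31 (SE, limma adjusted p = 0.11) that was not called. Of 13 tested filament genes, 1 was higher and 5 were lower, against 9.99% higher and 9.42% lower over all tested genes. Keratins were thus not the only filament genes with lower signal. Des, the muscle filament desmin, was 6.27-fold lower (limma adjusted p = 0.0066), and the neurofilament genes Nefl and Nefm were 5.21-fold (limma adjusted p = 0.014) and 3.19-fold lower (limma adjusted p = 0.011). Lmnb1, a nuclear lamin whose loss marks senescent cells, was 5.10-fold lower (limma adjusted p = 0.0052), whereas Bfsp1, a lens filament gene, was 2.37-fold higher (limma adjusted p = 0.013). Bfsp1 was not called without the first (1.25) or the second passage 7 array (1.24).

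**Figure D3:**
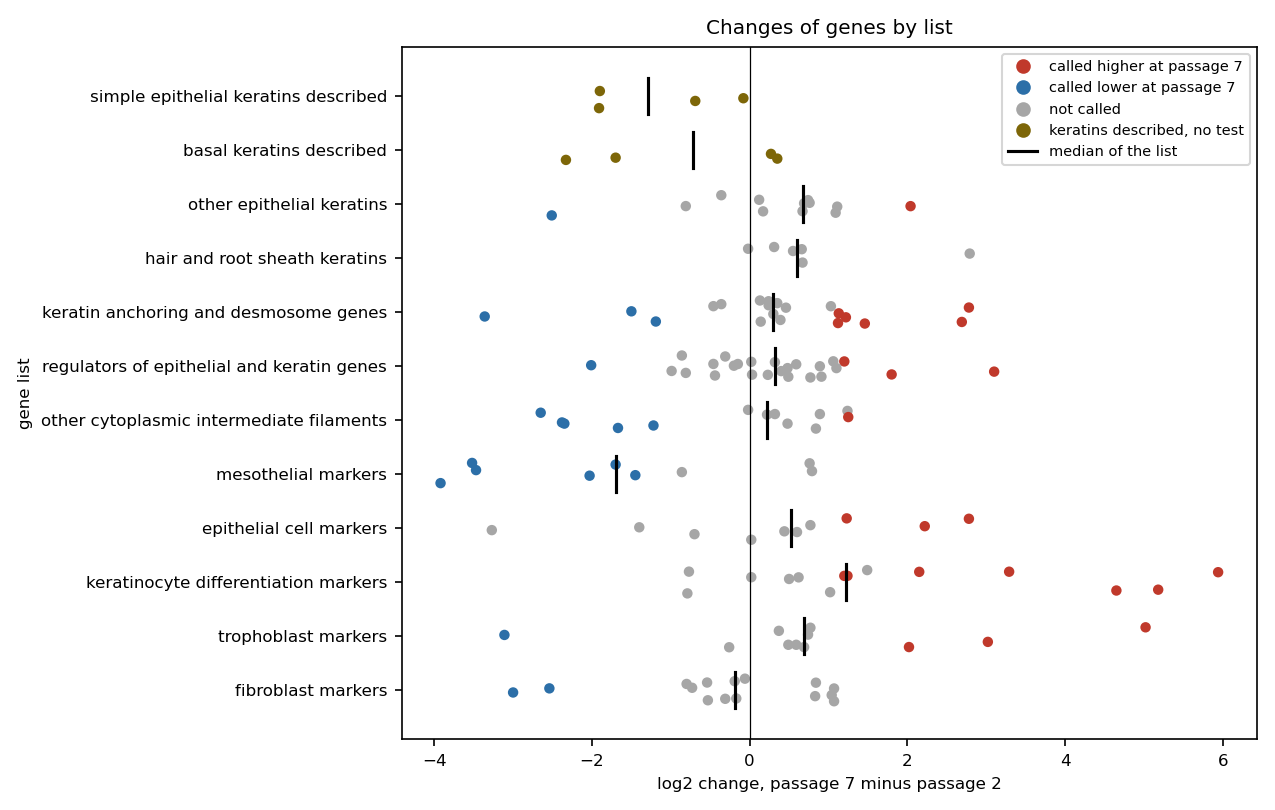
Log2 change, passage 7 minus passage 2, of every tested gene of each list that had a value on all 4 arrays, with 1 point per gene and a black line at their median; points are spread vertically for legibility. Red points were called higher at passage 7, blue lower and grey neither, and brown points are the keratins described, which were not tested. Mesothelial markers lie mostly below 0, with a median of -1.70, and keratinocyte differentiation markers mostly above it, with a median of 1.22.

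Markers of other cell types that cultures from embryos could hold were measured beside the keratins. Of 9 tested mesothelial markers, 6 were lower and none was called higher by limma, with 2 higher at an unadjusted p under 0.05. The median was -1.70, against 0.20 over all tested genes, of which 9.42% were called lower and 9.99% higher. Gpm6a was 15.1-fold lower, Wt1 11.5-fold, Lrrn4 11-fold and Upk3b 4.10-fold (limma adjusted p from 0.005 to 0.0065). Lrrn4 was not well above background on the second passage 7 array and passed the filter through passage 2 alone. Over the alternatives the log2 changes ranged from -4.09 to -0.59 for Gpm6a, -3.72 to -1.11 for Wt1, -3.65 to 0.12 for Lrrn4 and -2.20 to -0.84 for Upk3b, smallest with normexp. Wt1, the transcription factor of mesothelial and gonadal cells, stood at -4.02 and -4.42 at passage 7, against -0.80 and -0.61 at passage 2. The summed linear level of the 10 mesothelial markers on the array, in units of the 75th percentile, was 31.4 and 34.5 at passage 7 and 21.2 and 24.2 at passage 2. Pdpn, podoplanin, made up most of it, and without Pdpn the sum was 4.33 and 4.51 at passage 7 and 6.10 and 5.48 at passage 2. The part of mesothelial cells in the keratin values was not tested.

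Epithelial cell markers gave another picture. Of 20 on the array, 10 were tested, with 3 higher and none called lower by limma, and 1 lower at an unadjusted p under 0.05. Over all tested genes 9.99% were called higher and 9.42% lower. Of the 20, 9 were not well above background on any array. Cdh1, the epithelial cadherin, stood at -9.08 and -5.26 at passage 7, against -4.03 and -3.77 at passage 2, and was not called (change -3.27 ± 1.27 SE, limma adjusted p = 0.12). It was called lower by limma in 4 of 14 alternatives: the authors' deposited table (-1.54, adjusted p = 0.0053), median scaling (-3.44, adjusted p = 0.0017), a block that pairs differently numbered arrays (adjusted p = 0.049) and without the second passage 7 array (-5.18, adjusted p = 0.0042). Epcam, an epithelial adhesion molecule, stood at -7.84 and -5.36 at passage 7, against -5.78 and -6.01 at passage 2 (change -0.70 ± 0.83 SE, limma adjusted p = 0.56), and was called lower by limma without the second passage 7 array (-1.94, adjusted p = 0.025). Neither was well above background on the first passage 7 array, so both passed the filter through passage 2 alone. With the 2 normexp corrections the changes were 0.78 and -0.34 for Cdh1 and 1.72 and 0.6 for Epcam, without a call. Without the first passage 7 array the change of Epcam was 0.54. Spint2, a protease inhibitor, was 6.89-fold higher (limma adjusted p = 0.0058), and the claudins Cldn4 and Cldn3 were 4.64-fold (limma adjusted p = 0.019) and 2.35-fold higher (limma adjusted p = 0.016). In the authors' deposited table these changes were 0.67 for Cldn4 and 0.30 for Cldn3, and neither was called. Cldn3 was also not called without the first (1.25) or the second passage 7 array (1.21), nor Cldn4 without the second passage 2 array (1.89). The list summed to 4.52 and 5.97 at passage 7 and to 1.29 and 1.16 at passage 2. Most of that sum was Spint2, without which it was 0.573 and 0.889 at passage 7 and 0.701 and 0.447 at passage 2, so that the passages overlapped. The part of epithelial cells in the keratin values was not tested.

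Of 14 tested keratinocyte differentiation markers, 7 were higher and none was called lower by limma, with 1 lower at an unadjusted p under 0.05. The median was 1.22, against 0.20 over all tested genes, of which 9.99% were called higher and 9.42% lower. Of the 19 markers on the array, 5 were not well above background on any array. Ivl, the cornified envelope precursor involucrin, stood at 1.71 and 1.35 at passage 7, against -4.46 and -4.36 at passage 2 (61.4-fold higher, limma adjusted p = 0.005). Kprp was 36.1-fold, Lce1i 25.2-fold and Sprr1a 9.77-fold higher (limma adjusted p from 0.005 to 0.0072). Over the alternatives the log2 changes ranged from 4.65 to 6.12 for Ivl, 2.64 to 5.61 for Kprp, 3.08 to 5.28 for Lce1i and 2.58 to 3.62 for Sprr1a. In the authors' deposited table those of Kprp and Lce1i were 2.84 and 3.33. On the same arrays Krt1, the suprabasal keratin, was not well above background, and Krt10 and Krt5 overlapped between the passages. The list summed to 41.8 and 40.9 at passage 7 and to 26.8 and 23.3 at passage 2, and without Sprr2a1, its brightest probe, to 5.72 and 5.56 at passage 7 and to 1.47 and 1.94 at passage 2.

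Of 11 tested trophoblast markers, 3 were higher and 1 lower, against 9.99% called higher and 9.42% called lower over all tested genes. Of the 17 on the array, 6 were not well above background on any array. Prl8a9, a placental prolactin, was 32.4-fold higher (limma adjusted p = 0.005), although the first passage 2 array did not measure it well above background. It passed the filter through passage 7 alone. Its log2 change of 5.02 ranged from 2.34 to 5.21 over the alternatives and was 2.44 in the authors' deposited table. The related Prl2c2 and Prl3d1 were 8.09-fold (limma adjusted p = 0.01) and 4.07-fold higher (limma adjusted p = 0.012). Plac1, a placental surface protein, was at least 3.92-fold lower (limma adjusted p = 0.011) and was not called without the second passage 2 array (-3.14). It was not well above background on either passage 7 array, so it passed the filter only through passage 2, where its signal was higher. In the authors' deposited table its change was -0.95, without a call, and with the normexp corrections it was 1.55 and 0.37. The list summed to 3.44 and 3.78 at passage 7 and to 2.07 and 1.98 at passage 2, and without Gata3, its brightest probe, to 1.45 and 1.61 at passage 7 and to 0.64 and 0.456 at passage 2. Trophoblast also contains Krt7, Krt8 and Krt18, and the part of such cells in these values was not tested.

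The fibroblast markers were less uniform than their detection. Of 15 tested, none was called higher by limma, with 5 higher at an unadjusted p under 0.05, and 2 were lower. The share called was 13.3%, against 19.4% over all tested genes, and the median change was -0.19. Lum, the matrix proteoglycan lumican, was 8-fold lower (limma adjusted p = 0.0051) and Pdgfra, a growth factor receptor of fibroblasts, 5.83-fold lower (limma adjusted p = 0.0076). The list summed to 783 and 1130 at passage 7 and to 645 and 539 at passage 2, and without S100a4, its brightest probe, to 457 and 611 at passage 7 and to 400 and 383 at passage 2.

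The lower signals of Krt8, Krt18 and Krt14 kept their sign in all 15 alternative ways of processing the arrays. Alternatives that altered only the filter, the block or the variance model could not alter the change, so their sign was fixed in advance. Leaving out an array could not alter the sign either, since the arrays of the passages did not overlap for these genes. The sign is given as a description, since the same values entered the choice of the genes. With normexp background correction and an offset of 50 the changes were -0.19 for Krt8, -0.29 for Krt18 and -0.48 for Krt14. With normexp and the background of marked spots replaced they were -1.01, -1.19 and -1.37.

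**Figure D4:**
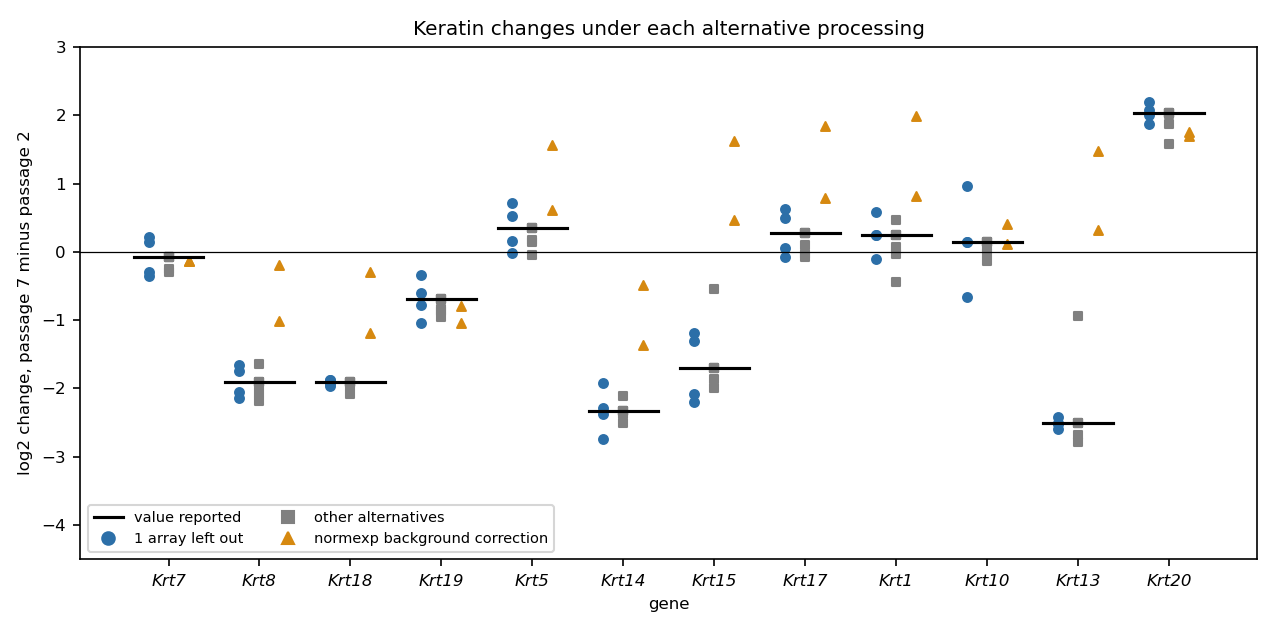
Log2 change, passage 7 minus passage 2, of the 10 keratins and of Krt13 and Krt20 under each alternative. Black lines are the values reported, blue circles leave out 1 array, orange triangles are the 2 normexp corrections and grey squares the remaining alternatives. Krt8, Krt18 and Krt14 stay below 0 throughout and Krt20 above it, whereas Krt15, Krt5, Krt17, Krt1, Krt10, Krt7 and Krt13 take both signs.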

How the data were processed

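Labelled RNA was hybridised to custom Agilent arrays, 2 per passage. The authors' deposited scanner files hold spot intensities made with Feature Extraction 10.5.1.1, including a background-subtracted processed intensity, per the file headers. Signal over background was 4.35 and 3.00 at passage 7 and 4.57 and 5.02 at passage 2, and the number of arrays limits the precision. The authors' deposited log2 value table (column medians 6.34 and 6.24 at passage 7, 6.42 and 6.41 at passage 2; r of 0.9986 to 1 with log2 median intensity over spots) was an alternative; its centring and background treatment stay unknown, and the submitters' processing notes name limma alone.

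The log2 processed intensity minus the array's 75th percentile was fitted with limma 3.58.1 in R 4.3.3 (lmFit, eBayes, 4 arrays, no covariate), two-sided, with Benjamini-Hochberg adjustment over 13848 genes. Outlier spots were left out and spots of a probe averaged. For 36 tested genes a spot was left out. Probes were named through RefSeq accessions and a GRCm38.p6 gene table (31089 of 31850 matched); the array was designed on mm9, so no probe coordinates are given. Where neither array of a passage was well above background, folds are bounds.

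The keratins and all gene lists were chosen with earlier results of these data known. Named from each list were up to 4 called rises and 4 called falls of largest change, and Cdh1, Epcam, Trp63, Vim, Dsp, Krt6a, Krt16, Krt13 and Ivl whatever their values. The fit was tested on simulated data.

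Over genes, the deviations of same-numbered arrays had a correlation of -0.17. With a single pair of arrays per passage, this value cannot decide whether the numbers pair arrays. Alternatives were other background corrections, normalisations, filters, probe choices, variance models, blocks and leaving out each array.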

Additional observations from a re-analysis of the deposited data

How the results depend on the processing

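The changes of Krt8, Krt18, Krt14, Krt19, Krt20 and Krt16 kept their sign under all 15 alternatives, the keratins chosen on this contrast being described and not tested. A different filter, block or variance model alone cannot alter these changes, so the sign is fixed in advance there. The same holds for leaving out an array, since the passages did not overlap for these genes. With normexp background correction, 0 of 13848 genes were called by limma (664 at an unadjusted p under 0.05), and so 0 in each list; the difference of medians was -1.83, and Krt13 (1.48), Ppl (0.08), Dsg2 (1.51), Nefl (0.67), Lrrn4 (0.12) and Plac1 (1.55) reversed. With marked backgrounds replaced, 1203 genes were called, with 1 of the other epithelial keratins, 4 anchoring genes, 2 regulators, 1 epithelial marker and 4 keratinocyte markers; the difference was -1.44, and Krt13 (0.32), Dsg2 (0.41) and Plac1 (0.37) reversed. The cause was not tested. Quantile normalisation called 1 hair keratin (difference -0.38), median scaling 1 hair keratin and 5 epithelial markers, and the authors' deposited values called 1 other epithelial keratin, 5 anchoring, 4 keratinocyte and 4 fibroblast genes (difference -0.99). Rises made up 51.5% of calls as reported, 42.2% after quantile normalisation, 41.2% after median scaling and 35.3% in the authors' deposited table. Without a filter 1771 genes were called. Requiring all 4 arrays well above background left 1 other epithelial keratin and 2 trophoblast markers, Krt13 no longer being tested, and eBayes with trend called 1 hair keratin.

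The replicate block, which pairs arrays by number although no label ties them, left 1173 calls in place of 2689, 5 anchoring and 3 filament genes. Under the crossed pairing, chosen after seeing the data, 4 other epithelial keratins, 1 hair keratin, 5 epithelial and 5 fibroblast markers were called. Leaving out 1 array, which assumes that the lone array varies like the other passage, gave 1156 calls (without the second passage 7 array; 1262 without the first) to 3458. The lists gave 2 to 4 other epithelial keratins (4 without the first passage 2 array), 0 to 1 hair keratin, 3 to 10 anchoring genes, 3 to 7 regulators, 4 to 8 filament genes, 2 to 5 epithelial (5 without the second passage 7 array), 5 to 9 keratinocyte, 5 to 7 mesothelial, 3 to 5 trophoblast and 2 to 3 fibroblast markers, and differences of medians of -0.68 to -0.42. Dim keratins such as Krt15, Krt17 and Krt1 are limited by signal over background.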
